A study of Mus musculus with 6 samples.

Results

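The genes described here are 8 members of the mouse machinery that binds the Fc part of immunoglobulin G (IgG) and passes the signal on. They are the Fc-gamma receptor genes Fcgr1, Fcgr2b, Fcgr3 and Fcgr4, the neonatal Fc receptor gene Fcgrt, the signaling chain genes Fcer1g and Tyrobp, and the kinase gene Syk. They were chosen by gene symbol, each symbol matched 1 gene, and the 8 stand among 54532 genes in the expression table. RNA-seq was performed on bone-marrow-derived macrophages (BMDMs), which are macrophages grown in culture from marrow, here from wild-type C57BL/6 mice in medium conditioned by L929 cells. There were 3 groups of 2 libraries. The untreated group received neither agent, the LPS group received 100 ng/ml lipopolysaccharide for 2 h, and the Met + LPS group received 5 mM metformin for 6 h before the same LPS stimulation. LPS is a cell-wall molecule of Gram-negative bacteria to which macrophages respond through TLR4, and metformin is a drug used against type 2 diabetes. No group with metformin and without LPS was analysed here, so the effect of metformin on resting cells was not measured. The study's methods say that the BMDMs for sequencing were plated in duplicate, and no label says that replicates came from separate mice. The p-values therefore measure the spread between these libraries, which may be technical.

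Fc-gamma receptors sit on the cell surface and bind IgG that coats a microbe or particle. The activating receptors encoded by Fcgr1, Fcgr3 and Fcgr4 carry no signaling motif of their own. They pair with the gamma chain encoded by Fcer1g, whose activation motif (ITAM) recruits the kinase Syk once the receptors are clustered, which leads to engulfment, a respiratory burst and cytokine release. The receptor encoded by Fcgr2b carries an inhibitory motif (ITIM) in its own tail and dampens that signal, so the balance between it and the activating receptors sets how macrophages react to immune complexes. Tyrobp encodes DAP12, another ITAM chain, which serves a separate set of myeloid receptors. Fcgrt encodes FcRn, which binds IgG inside endosomes and spares it from degradation.

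Levels are given in TPM, as deposited, a measure of transcript abundance that corrects for gene length and sums to the same total in each library, and differences as log2 fold changes on the log2(TPM + 1) scale from limma, with p-values adjusted by the Benjamini-Hochberg method over 12755 genes, those that reached 1 TPM in 2 or more libraries. All 8 genes passed that filter. A gene was called changed at an adjusted p under 0.01. The libraries held 25457016 to 30762753 reads recovered from the TPM values, and the 8 genes rested on 626 (Fcgrt) to 30219 (Syk) reads per library. Of the markers of the labelled cell type, 8 of 8 macrophage genes had a mean of at least 1 TPM. Of 5 T cell markers, 4 were under 0.1 TPM, among them Cd3e, and 1, Cd4, had a mean of at least 1 TPM. Of 5 NK cell markers, 4 were under 0.1 TPM, among them Ncr1, and 0 had a mean of at least 1 TPM. Of 6 neutrophil markers, Ly6g was under 0.1 TPM and 5 had a mean of at least 1 TPM. Of the 6 genes taken as a check of the LPS labels, 6 rose with LPS. The median tested gene changed by -0.48 between untreated and LPS libraries in TPM and by -0.03 between LPS and Met + LPS libraries. Because of the first shift, the LPS differences are also given after a rescaling that divided every library by its median ratio over genes. In bulk samples, fewer cells of a type and less RNA per cell cannot be told apart.

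With metformin pretreatment, all 4 Fc-gamma receptor genes were lower than with LPS alone, by log2 fold changes of -0.95 to -1.19, while their differences with LPS alone ranged more widely. With LPS in TPM, Fcgr2b and Fcgr4 rose, Fcgr1 was not called and Fcgr3 was called lower by a small amount, whereas after rescaling all 4 were called higher, by 0.34 (Fcgr3) to 2.67 (Fcgr2b). The signaling chains and Syk were lower by smaller amounts. Of the 8 genes, 8 were called lower in Met + LPS against LPS, where 18.0% of all tested genes were called lower and 32.6% were called in either direction. The 2 groups of libraries did not overlap for 8 of the 8, against 73.8% of all tested genes. The median log2 fold change was -0.81 over the 8 genes and -0.03 over all tested genes. The study's cut-off for this comparison, an absolute log2 fold change of 0.7, was passed by the 4 Fc-gamma receptors, where 4.09% of the tested genes fell past it and 4.19% rose past it. The study set its cut-offs on fold changes from DESeq2, a test on read counts. Here they were applied to limma values on the log2(TPM + 1) scale, so the shares passing are not those of the study.

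**Figure D1:**
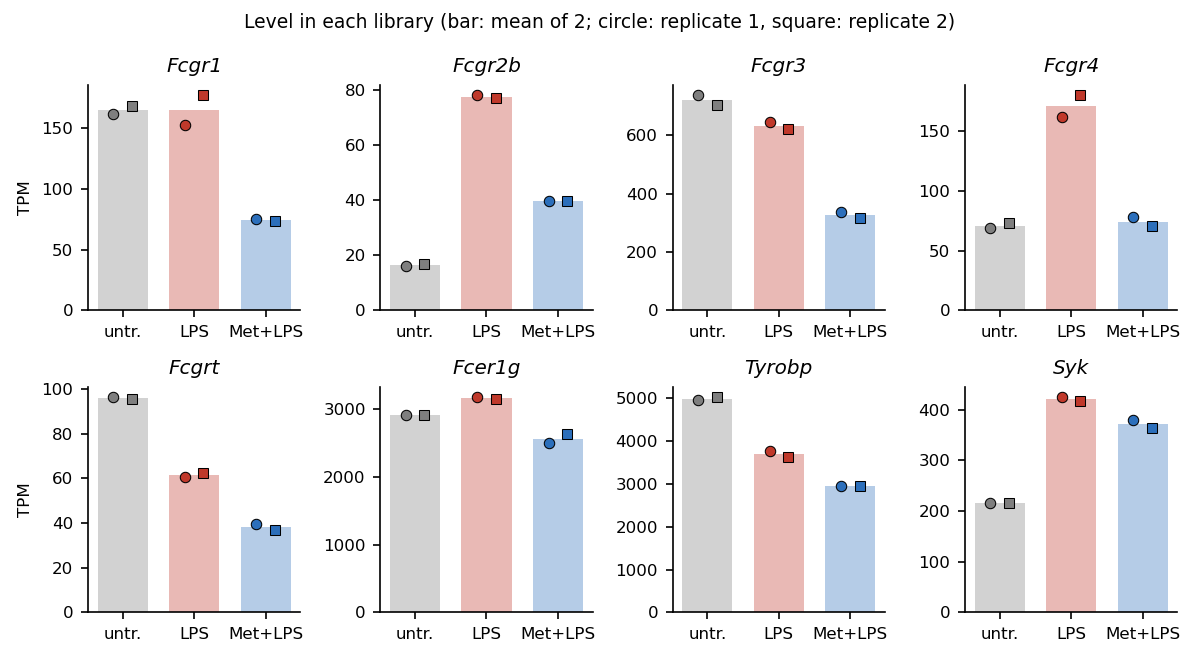
Level in TPM (vertical axes, each starting at 0) of the 8 genes in the untreated (untr.), LPS and Met + LPS libraries. Bars are means of 2 libraries, and circles and squares are replicates 1 and 2. Every Met + LPS point lies below both LPS points of the same gene.

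Fcgr2b, the inhibitory receptor gene (chr1:170958617-170976547, minus strand, GRCm38), measured 16.2 and 16.7 TPM in the untreated libraries, 78.0 and 77.0 TPM with LPS, and 39.6 and 39.6 TPM in Met + LPS. The 3 groups were fully apart, with LPS highest and untreated lowest. The mean LPS level in TPM was 4.71 times the untreated one. The log2 fold change on the log2(TPM + 1) scale was 2.17 ± 0.04 (SE, adjusted p = 4.32e-08 in limma), and 2.67 after rescaling. Of the 8 genes, Fcgr2b was the 1 past the study's cut-off for LPS, an absolute log2 fold change of 2, applied here on the log2(TPM + 1) scale. On that scale, 3.72% of the tested genes rose and 2.37% fell past it. With metformin pretreatment it fell by 48.9% from its level with LPS alone (log2 fold change -0.95 ± 0.04, adjusted p = 1.65e-05 in limma), which was still 2.41 times the untreated level.

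Fcgr3, the most abundant of the 4 receptor genes (chr1:171051174-171064935, minus strand), encodes a low-affinity activating receptor. It measured 737 and 705 TPM untreated, 644 and 622 TPM with LPS, and 336 and 317 TPM in Met + LPS. The groups did not overlap, and the drop from LPS to Met + LPS was far larger than the one from untreated to LPS. With LPS the log2 fold change was -0.19 ± 0.04 in TPM (adjusted p = 0.00519 in limma) and 0.34 after rescaling (adjusted p = 4.27e-04), so its direction rested on the scaling. That call was also lost when any of the untreated or LPS libraries was left out, at adjusted p-values of 0.0122 to 0.0463. The metformin difference was -0.95 ± 0.04 (adjusted p = 1.99e-05 in limma), and rescaling gave -0.94.

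Fcgr2b and Fcgr3 encode closely related extracellular parts, which matters for how their reads can be told apart. In GENCODE transcripts with coding sequences of 1020 bases (Fcgr2b) and 801 bases (Fcgr3), 491 of 509 aligned coding bases (96.5%) were identical, and the longest identical run was 129 bases. The stretches shown cover coding bases 126 to 275 of Fcgr2b and 111 to 260 of Fcgr3, counted from the start codon, and the capitals mark the 12 bases at which they differ.
Fcgr2b: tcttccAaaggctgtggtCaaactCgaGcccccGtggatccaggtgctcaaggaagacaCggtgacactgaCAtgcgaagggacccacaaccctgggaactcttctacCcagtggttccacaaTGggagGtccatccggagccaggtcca
Fcgr3: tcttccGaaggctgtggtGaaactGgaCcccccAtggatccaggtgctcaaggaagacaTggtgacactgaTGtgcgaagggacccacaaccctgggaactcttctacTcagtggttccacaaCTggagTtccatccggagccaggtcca
Of the 50-base words in their transcripts, 93.1% for Fcgr2b and 90.4% for Fcgr3 occurred in no other gene, and for the other 6 genes the share was 100%. The sources used here do not say how reads that fit both genes were counted. In the deposited values, Fcgr3 exceeded Fcgr2b 45.5 and 42.2 times in the untreated libraries and 8.26 and 8.08 times in the LPS libraries. These ratios do not show how shared reads were assigned, and the part of such reads in the Fcgr2b level was not tested. In addition, 155 exon bases of Fcgr2b (2.68%) lie opposite the antisense gene Gm38204, which had a mean of 0.246 TPM, and the sources do not say whether counting used the strand.

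Fcgr4 (chr1:171018920-171029761, plus strand) lies between Fcgr2b and Fcgr3 and encodes an activating receptor for IgG2a and IgG2b. It measured 68.7 and 72.7 TPM untreated, 162 and 180 TPM with LPS, and 78.2 and 70.2 TPM in Met + LPS. The LPS libraries were above all others, and the untreated and Met + LPS libraries overlapped. The LPS level was 2.42 times the untreated one (log2 fold change 1.26 ± 0.07, adjusted p = 7.00e-06 in limma, and 1.78 after rescaling). The metformin difference was -1.19 ± 0.07 (adjusted p = 5.31e-05 in limma), and 123 of the 12755 tested genes fell further. Between Met + LPS and untreated libraries the difference was 0.07, with a 95% interval of -0.11 to 0.24 (adjusted p = 0.415 in limma). After rescaling that difference was 0.60 (adjusted p = 3.53e-04), so whether the level was back at that of untreated cells depended on the scaling.

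Fcgr1 (chr3:96282909-96293969, minus strand) encodes the high-affinity receptor, which can hold monomeric IgG. It measured 162 and 168 TPM untreated, 153 and 177 TPM with LPS, and 74.9 and 73.8 TPM in Met + LPS. The untreated and LPS libraries overlapped, and both Met + LPS libraries were below all others. The LPS difference was not called in TPM, with a 95% interval of -0.17 to 0.16 on the log2 scale (adjusted p = 0.971 in limma). Relative to the median gene it was higher, with a log2 fold change of 0.52 after rescaling (adjusted p = 6.04e-04). The metformin difference was -1.14 ± 0.07 (adjusted p = 5.15e-05 in limma), and Met + LPS libraries were also below untreated ones by -1.14 in TPM (adjusted p = 8.05e-06) and by -0.60 after rescaling.

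**Figure D2:**
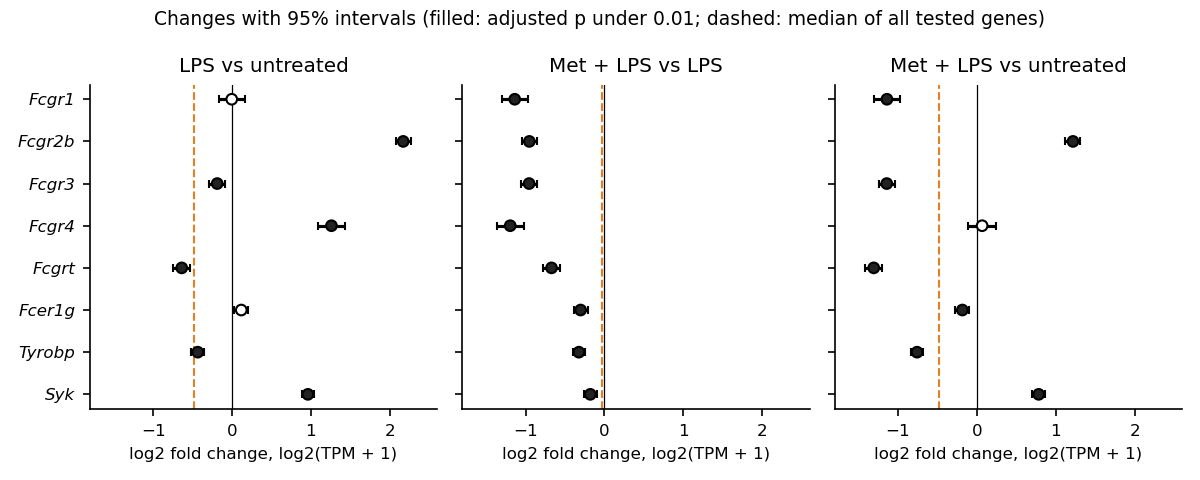
Log2 fold change on the log2(TPM + 1) scale (horizontal axes) of the 8 genes in the 3 comparisons, with 95% intervals from limma. Filled points passed an adjusted p of 0.01, and the dashed line is the median of all tested genes (-0.48, -0.03 and -0.48). In Met + LPS against LPS the 4 Fc-gamma receptors lie at -0.95 to -1.19, and Syk lies nearest to 0. The signs of Fcgr1, Fcgr3 and Tyrobp with LPS, and of Fcer1g against untreated, turn after rescaling.

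In TPM, the shares of Fcgr2b, Fcgr3 and Fcgr4 in the receptor pool moved more with LPS than between LPS and Met + LPS. The summed level moved more between LPS and Met + LPS. The summed level of Fcgr1, Fcgr2b, Fcgr3 and Fcgr4 was 984 and 963 TPM untreated, 1037 and 1057 TPM with LPS, and 529 and 500 TPM in Met + LPS. The LPS mean of the sum was 73.4 TPM above the untreated mean, without overlap, and the Met + LPS mean was 532 TPM below the LPS mean. The sum, unlike the shares, depends on the scaling of the library, and after rescaling each of the 4 genes was called higher with LPS. Within that sum, the inhibitory receptor gene Fcgr2b made up 1.65% and 1.73% untreated, 7.52% and 7.29% with LPS, and 7.50% and 7.90% in Met + LPS. Its share thus rose by 5.72 percentage points with LPS and differed by 0.296 points between Met + LPS and LPS, where the libraries overlapped. With each library left out, the LPS rise was 5.60 to 5.83 points, and the second difference was 0.0928 (without Met + LPS replicate 2) to 0.498 points (without Met + LPS replicate 1), with 0.178 without LPS replicate 2. On recovered reads, which are not divided by gene length, the LPS rise was 15.4 points and the second difference 0.713 points. The share of Fcgr3 was 74.1% ± 1.17 (SD, n = 2) untreated, 60.5% ± 2.29 with LPS and 63.4% ± 0.162 in Met + LPS. The share of Fcgr4 was 7.26% ± 0.402, 16.3% ± 1.03 and 14.4% ± 0.539 in the same order, and that of Fcgr1 was 17.0% ± 0.705, 15.8% ± 1.42 and 14.5% ± 0.414. Shares within a library do not depend on its scaling. With 2 libraries against 2 an exact two-sided permutation test cannot go below p = 0.333, which is the value for the Fcgr2b share with LPS. For Met + LPS against LPS, the exact p was 0.667 for the Fcgr2b share. It was 0.333 for the shares of Fcgr1, Fcgr3 and Fcgr4, which differed by -1.30, 2.93 and -1.92 points.

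**Figure D3:**
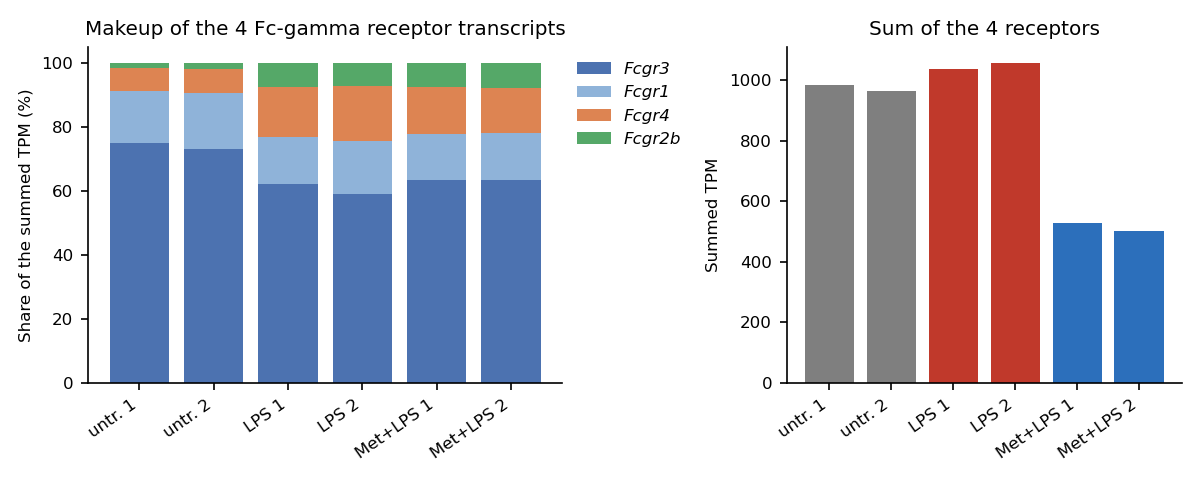
Left, share of each of the 4 Fc-gamma receptor genes in their summed TPM (vertical axis, %) in each library. Right, that sum in TPM. Fcgr2b takes 1.65% to 1.73% of the sum in untreated libraries and 7.29% to 7.90% in the 4 libraries with LPS, and the sum is 500 to 529 TPM in Met + LPS against 963 to 1057 TPM in the other 4.

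The log2 ratio of any pair among the 4 receptor genes changed by at most 0.25 in size between LPS and Met + LPS libraries. The ratio of Fcgr2b to Fcgr3 changed by -0.01, and that of Fcgr3 to Fcgr4 by 0.25. From untreated to LPS the same ratios changed by 2.42 and -1.46. These comparisons share the LPS libraries.

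Promoter windows of the 4 receptor genes are shown because the 4 fell together in Met + LPS. Each runs from 250 bases before to 50 bases after a start listed for the gene in RefSeq (GRCm38.p6). It is printed in the direction of transcription, with the matches to the motifs searched in capitals. The Fcgr2b and Fcgr3 windows lie inside the gene spans given above, which run up to positions 170976547 and 171064935. The windows are chr3:96293920-96294219 (minus) for Fcgr1, chr1:170976022-170976321 (minus) for Fcgr2b, chr1:171059354-171059653 (minus) for Fcgr3, the first of 2 starts listed for that gene, and chr1:171018676-171018975 (plus) for Fcgr4.
Fcgr1: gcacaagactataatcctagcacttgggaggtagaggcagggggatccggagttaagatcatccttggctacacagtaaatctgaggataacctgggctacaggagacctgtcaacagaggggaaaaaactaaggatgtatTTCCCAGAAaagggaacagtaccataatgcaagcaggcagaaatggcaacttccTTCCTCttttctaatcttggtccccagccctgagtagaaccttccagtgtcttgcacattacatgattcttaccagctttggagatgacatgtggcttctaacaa
Fcgr2b: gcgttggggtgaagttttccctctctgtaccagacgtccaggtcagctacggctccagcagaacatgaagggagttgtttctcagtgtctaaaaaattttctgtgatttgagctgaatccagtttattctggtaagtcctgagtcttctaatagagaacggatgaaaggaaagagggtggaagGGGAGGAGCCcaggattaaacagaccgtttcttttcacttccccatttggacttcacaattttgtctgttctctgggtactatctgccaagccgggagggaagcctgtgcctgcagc
Fcgr3: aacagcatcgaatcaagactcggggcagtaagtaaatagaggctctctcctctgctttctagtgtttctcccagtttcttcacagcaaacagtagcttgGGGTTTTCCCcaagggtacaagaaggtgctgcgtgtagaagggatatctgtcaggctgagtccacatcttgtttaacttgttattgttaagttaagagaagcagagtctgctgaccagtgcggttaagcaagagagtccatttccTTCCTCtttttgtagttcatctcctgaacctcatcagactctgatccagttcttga
Fcgr4: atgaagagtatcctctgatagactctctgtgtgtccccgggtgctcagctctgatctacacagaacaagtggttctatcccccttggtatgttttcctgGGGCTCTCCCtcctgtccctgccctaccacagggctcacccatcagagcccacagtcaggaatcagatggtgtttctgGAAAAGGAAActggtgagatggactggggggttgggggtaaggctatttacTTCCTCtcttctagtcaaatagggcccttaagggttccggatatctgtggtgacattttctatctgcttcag
The motifs were searched on both strands and by letters alone. A PU.1-type core (GAGGAA, or TTCCTC on the other strand) was found in Fcgr1, 55 to 50 bases before the start, in Fcgr3, 6 to 1 bases before it, and in Fcgr4, 22 to 17 bases before it, and 28.3% of 27025 mouse promoter windows hold it. A STAT-type palindrome (TTCNNNGAA) was found in Fcgr1, 109 to 101 bases before the start, and in 8.47% of windows. An interferon-response pattern (GAAA and GAAA with 2 bases between) was found in Fcgr4, 73 to 64 bases before the start, and in 3.49% of windows. An NF-kB-type pattern (GGGA and CC with 4 bases between) was found in Fcgr2b, Fcgr3 and Fcgr4 and in 20.5% of windows. It was also found in the window of Fcer1g, so that 4 of the 7 windows found for the 8 genes held it. No motif occurred in all 4 receptor windows. The AP-1 pattern (TGANTCA) and the pattern TGATGNAA occurred in 0 of the 7 windows that were found for the 8 genes, against 7.93% and 4.06% of all windows. Tyrobp had no entry. Such matches describe the letters and not binding.

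Fcgrt, the gene of the FcRn heavy chain (chr7:45092990-45103851, minus strand), was lower with LPS in TPM and lower again with metformin. It measured 96.2 and 95.6 TPM untreated, 60.4 and 62.3 TPM with LPS, and 39.4 and 37.0 TPM in Met + LPS. Each group lay below the one before it, without overlap. The log2 fold change with LPS was -0.64 ± 0.04 (adjusted p = 1.57e-05 in limma), which was close to the median gene and came to -0.12 after rescaling (adjusted p = 0.0515). The metformin difference was -0.67 ± 0.04 (adjusted p = 6.79e-05 in limma), and 666 of the tested genes fell further. B2m, the light chain with which FcRn pairs, had 9746 ± 486 TPM (SD, n = 2) untreated, 10591 ± 495 TPM with LPS and 10921 ± 262 TPM in Met + LPS, and was not called in any comparison in TPM. After rescaling, B2m was called higher with LPS (0.65) and in Met + LPS against untreated (0.71), and not in Met + LPS against LPS (0.06).

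Fcer1g, the shared gamma chain (chr1:171229572-171234365, minus strand), stayed abundant in all groups. It measured 2913 and 2906 TPM untreated, 3169 and 3146 TPM with LPS, and 2491 and 2633 TPM in Met + LPS. The groups did not overlap, and the Met + LPS libraries were lowest. The LPS difference of 0.12 ± 0.04 did not pass the threshold in TPM (adjusted p = 0.0199 in limma) and was 0.64 after rescaling (adjusted p = 8.28e-06). The metformin difference was -0.30 ± 0.04 (adjusted p = 8.19e-04 in limma), and 2714 of the tested genes fell further. Against untreated libraries, Met + LPS gave -0.18 in TPM (adjusted p = 0.00278), which turned to 0.36 after rescaling, and which was not called without untreated replicate 1 (adjusted p = 0.0273), untreated replicate 2 (0.0258) or Met + LPS replicate 1 (0.0168).

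Relative to the receptors it serves, Fcer1g was higher in Met + LPS. The ratio of Fcer1g to the sum of Fcgr1, Fcgr3 and Fcgr4, on the TPM scale, was 3.01 and 3.07 untreated, 3.30 and 3.21 with LPS, and 5.09 and 5.71 in Met + LPS. The ratio in Met + LPS was above that of every other library, by 2.15 over the LPS mean, while LPS changed the ratio by 0.217 (exact p = 0.333 for both, the smallest possible). A transcript ratio does not give the ratio of the proteins.

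Tyrobp (chr7:30413760-30417585, plus strand), the DAP12 chain, was the most abundant of the 8 transcripts per length in every group. It measured 4954 and 5008 TPM untreated, 3759 and 3616 TPM with LPS, and 2953 and 2937 TPM in Met + LPS. The groups did not overlap and stood in that order. The LPS difference was -0.43 ± 0.03 in TPM (adjusted p = 2.67e-05 in limma) and 0.09 after rescaling (adjusted p = 0.0367), so it was near that of the median gene and turned in sign. The metformin difference was -0.32 ± 0.03 (adjusted p = 4.22e-04 in limma), close to that of Fcer1g.

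Syk (chr13:52583173-52648792, plus strand), the kinase that binds phosphorylated ITAMs, rose with LPS and largely kept that rise with metformin. It measured 215 and 216 TPM untreated, 424 and 418 TPM with LPS, and 380 and 363 TPM in Met + LPS. The 2 groups with LPS were far above the untreated one and did not overlap each other. LPS raised it 1.95-fold (log2 fold change 0.96 ± 0.03, adjusted p = 8.06e-07 in limma, and 1.49 after rescaling), and Met + LPS remained 1.73 times the untreated level (0.78 ± 0.03, adjusted p = 2.04e-06). The metformin difference of -0.18 ± 0.03 (adjusted p = 0.00526 in limma) was the smallest in size of the 8. It was called in 6 of 14 alternative settings and was lost when any library other than Met + LPS replicate 1 was left out, at adjusted p-values of 0.0194 to 0.0285.

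Of the 8 genes, 6 were called between untreated and LPS libraries in TPM, 3 higher and 3 lower, where 76.3% of all tested genes were called, 16.2% higher and 60.1% lower. After rescaling, 6 were called higher and 0 lower, and over all tested genes 3908 were called higher and 3522 lower. The libraries of the 2 groups did not overlap for 7 of the 8, against 91.6% of all tested genes. The median was 0.06 over the 8 genes and -0.48 over all tested genes. Between untreated and Met + LPS libraries, 7 were called, 2 higher (Fcgr2b and Syk) and 5 lower, where 75.1% of all tested genes were called, 16.3% higher and 58.8% lower, and after rescaling 4 were higher and 4 lower, with 4255 higher and 3789 lower over all tested genes. The libraries did not overlap for 7 of the 8, against 90.7% of all tested genes. This last comparison shares its libraries with both others.

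**Figure D4:**
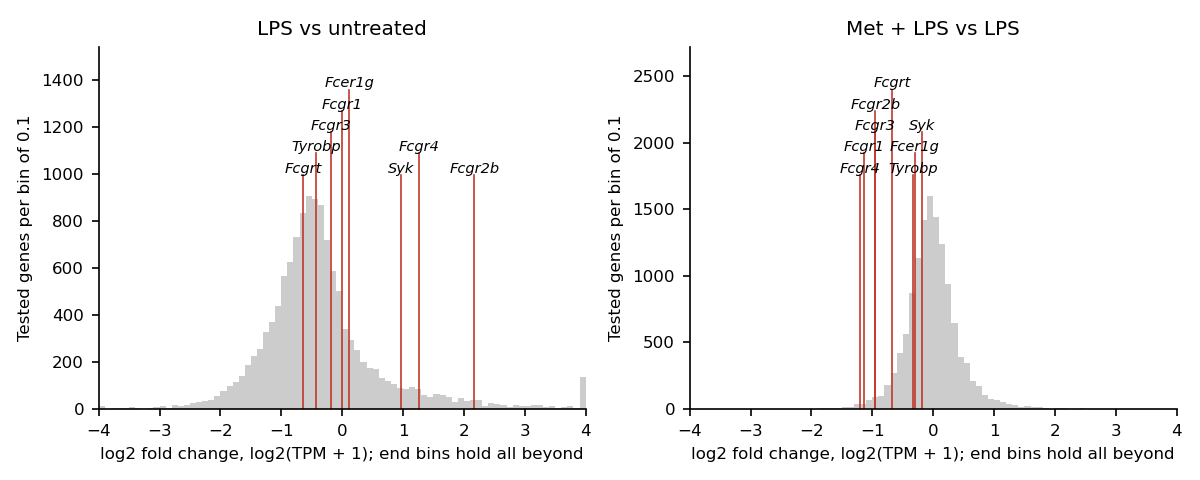
Number of tested genes (vertical axis) by log2 fold change in bins of 0.1 (horizontal axis, log2(TPM + 1) scale) for LPS vs untreated and Met + LPS vs LPS, with red lines at the 8 genes and the end bins holding all genes beyond. The bulk of the left histogram lies near -0.48, where Tyrobp and Fcgrt also fall, and Fcgr2b lies at 2.17. On the right, the 4 Fc-gamma receptors and Fcgrt lie in the lower tail. After rescaling, Fcgr1, Fcgr3 and Tyrobp lie above 0 in the LPS comparison.

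The order of the 8 levels per transcript length changed with the groups. Untreated cells had Tyrobp highest, followed by Fcer1g, Fcgr3, Syk, Fcgr1, Fcgrt, Fcgr4 and Fcgr2b, and no neighbours in that order overlapped. With LPS, Fcgr4 and Fcgr1 overlapped at 171 ± 13.1 and 165 ± 17.1 TPM (SD, n = 2), and Fcgrt became the lowest. In Met + LPS, Syk at 372 ± 11.8 TPM stood above Fcgr3 at 326 ± 13.5 TPM. Fcgr1 and Fcgr4 overlapped there at 74.4 ± 0.754 and 74.2 ± 5.65 TPM, and Fcgr2b and Fcgrt, at 39.6 ± 0.0604 and 38.2 ± 1.71 TPM, differed by less than the spread of Fcgrt. The order rests on gene length, which for Syk was 9362 bases over all exons and 2993 bases in the transcript length listed beside it.

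Cell type markers moved with the groups too. The summed level of the 8 macrophage markers was 44692 to 46666 TPM untreated, 37441 to 37977 TPM with LPS and 30998 to 31066 TPM in Met + LPS. With LPS, 2 of the 8 were called higher and 5 lower in TPM, against 16.2% and 60.1% of all tested genes. After rescaling, 5 were called higher and 1 lower, with 3908 higher and 3522 lower over all tested genes. Their median LPS difference was -0.28 in TPM and 0.25 after rescaling, so its direction rested on the scaling. In Met + LPS against LPS, 5 of these 8 were called lower and 0 higher, where 18.0% and 14.5% of all tested genes were. Their median was -0.32, against -0.03 over all tested genes. The members stood at -0.95 to -1.19 for the 4 Fc-gamma receptors, -0.67 for Fcgrt, -0.30 for Fcer1g, -0.32 for Tyrobp and -0.18 for Syk. The summed neutrophil markers were 29.4 and 32.6 TPM untreated, 26.3 and 27.6 TPM with LPS and 45.2 and 42.8 TPM in Met + LPS. The summed mast cell and basophil markers, mostly Kit, were 20.6 to 21.1 TPM, 8.18 to 8.31 TPM and 23.2 to 24.4 TPM in the same order, with Fcer1a, Ms4a2, Mcpt4, Mcpt8 and Tpsab1 under 0.1 TPM. Between LPS and Met + LPS, 0 of the 5 tested neutrophil markers were called, in TPM or after rescaling. In TPM, 32.6% of all tested genes were called there, and Kit was called higher in both. The summed markers of T cells were at most 6.92 TPM, highest in untreated libraries, and those of NK, dendritic and stromal cells were at most 0.305, 2.80 and 1.32 TPM. The part of these shifts in the results was not tested.

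Downstream of the receptors, Src-family kinases phosphorylate the ITAM, Syk activates phospholipase C and PI3K through adaptors, and the Card9, Bcl10 and Malt1 complex leads to NF-kB. Of 29 kinases and adaptors of this kind, 5 were called higher and 15 lower in Met + LPS against LPS, where 14.5% and 18.0% of all tested genes were. The median was -0.19, against -0.03 over all tested genes. Fgr, a Src-family kinase of myeloid cells, measured 1.81 ± 0.469 TPM (SD, n = 2) untreated, 5.81 ± 0.342 TPM with LPS and 2.19 ± 0.0912 TPM in Met + LPS, a metformin difference of -1.09 (adjusted p = 8.63e-04 in limma). Pik3cd, a catalytic PI3K subunit, fell from 54.2 ± 5.42 to 26.4 ± 1.67 TPM (-1.01, adjusted p = 1.20e-04 in limma). Pik3ap1, the PI3K adaptor BCAP and the most abundant of the list, fell from 670 ± 11.5 to 454 ± 25.8 TPM (-0.56). With LPS 11 were called higher and 15 lower, against 16.2% and 60.1% of all tested genes. After rescaling these counts were 14 and 7, with 3908 higher and 3522 lower over all 12755 tested genes. The largest rises were those of Src (4.15), Malt1 (3.44) and the adaptor Lcp2 (3.43), of which Src fell by 0.85 with metformin and Malt1 fell by 0.28, while the difference of Lcp2 was -0.10 (adjusted p = 0.0887 in limma).

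Brakes on the pathway were called in both directions with metformin. Of 15 phosphatases, adaptors and ubiquitin ligases that restrain it, 4 were called higher and 3 lower in Met + LPS against LPS, where 14.5% and 18.0% of all tested genes were, with a median of -0.08. Cblb, a ubiquitin ligase, measured 111 ± 0.722 TPM untreated, 26.2 ± 0.445 TPM with LPS and 77.4 ± 4.04 TPM in Met + LPS, so that it fell by 2.05 with LPS and was 1.53 higher with metformin (adjusted p = 7.32e-06 in limma). Pag1, which anchors the kinase Csk, had the same order (-1.25 and 0.90). Dok2, an adaptor, was lower by -1.05 with metformin, and Ptpn6, the phosphatase SHP-1 that binds ITIMs, by -0.64. With LPS, 3 of the 15 were called higher and 11 lower in TPM, against 16.2% and 60.1% of all tested genes. After rescaling these counts were 5 and 6, with 3908 higher and 3522 lower over all 12755 tested genes. Ptpn12, a phosphatase, rose by 1.56, and Dok3 fell by 1.59.

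Other receptors that signal through Fcer1g or Tyrobp were called in both directions. Of 19 genes listed (receptors and the chain gene Hcst), 12 were tested, and in Met + LPS against LPS 4 were called higher and 3 lower, against 14.5% and 18.0% of all tested genes, with a median of -0.05. Clec4e (Mincle), a C-type lectin receptor that pairs with the Fcer1g chain, measured 17.1 ± 0.933 TPM untreated, 720 ± 21.8 TPM with LPS and 834 ± 12.0 TPM in Met + LPS, a metformin difference of 0.21 (adjusted p = 0.00873 in limma). Clec4d rose by 0.21 and Clec5a by 0.24. Cd300lb fell by 4.37 with LPS, from 491 ± 5.77 to 22.8 ± 0.750 TPM, and was 0.26 higher with metformin. The largest falls were those of Pilrb1 (-0.55, at 2.88 ± 0.108 TPM with LPS) and Hcst (-0.39), which encodes the DAP10 chain. With LPS, 4 of the 12 were called higher and 7 lower, against 16.2% and 60.1% of all tested genes. After rescaling these counts were 4 and 3, with 3908 higher and 3522 lower over all 12755 tested genes.

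Among 15 other genes listed as inhibitory receptors, not all of them with an ITIM, 14 were tested. Against LPS alone, 2 were called higher and 5 lower in Met + LPS, where 14.5% and 18.0% of all tested genes were, with a median of -0.28. Lilrb4a rose from 244 ± 8.83 to 532 ± 47.0 TPM (1.12, adjusted p = 5.59e-05 in limma) and Cd300a from 112 ± 0.657 to 144 ± 6.51 TPM (0.37), whereas Cd72 (-0.59) and Clec12a (-0.58) fell. Sirpa, which binds CD47 and is the most abundant of them at 1400 ± 65.8 TPM in Met + LPS, differed by -0.14 from LPS (adjusted p = 0.0234 in limma). With LPS, 1 was called higher and 8 lower, against 16.2% and 60.1% of all tested genes. After rescaling these counts were 7 and 2, with 3908 higher and 3522 lower over all 12755 tested genes. Cd300lf, Cd300a and Cd22 fell by 1.52, 1.36 and 0.76.

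Of 30 genes of actin remodelling at the phagocytic cup, 2 were called higher and 17 lower with metformin in TPM, against 14.5% and 18.0% of all tested genes. After rescaling these counts were 2 and 14, with 1996 higher and 2225 lower over all 12755 tested genes. The median in TPM was -0.19. Myo10, a myosin of filopodia and phagocytic cups, fell from 112 ± 0.534 to 66.0 ± 3.35 TPM (-0.75, adjusted p = 5.01e-05 in limma), and Coro1a and Gsn, both actin-binding proteins, fell by 0.55 and 0.53. Wipf1, which binds WASP, rose by 0.49. With LPS, 5 of the 30 were called higher and 15 lower, against 16.2% and 60.1% of all tested genes. After rescaling these counts were 20 and 5, with 3908 higher and 3522 lower over all 12755 tested genes. Marcksl1 rose from 64.4 ± 0.564 to 3219 ± 147 TPM with LPS and fell with metformin (-0.52, adjusted p = 1.14e-04 in limma).

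Of 12 other Fc receptor and Fc receptor-like genes, 4 were tested, and 3 were called lower in Met + LPS against LPS, where 18.0% of all tested genes were, while Fcrl1 differed by -0.08 (adjusted p = 0.278 in limma). Trim21, a cytosolic receptor for antibody, measured 38.4 ± 0.781 TPM untreated, 237 ± 4.64 TPM with LPS and 179 ± 3.96 TPM in Met + LPS (2.59 and -0.40, adjusted p = 1.56e-08 and 2.57e-04 in limma). Fcrlb, which lies near Fcgr2b on chromosome 1, was low throughout but had the same order, at 0.208 ± 0.140, 4.83 ± 1.62 and 1.43 ± 0.159 TPM. Fcrls fell by 0.43 with metformin, and Fcrl1 fell by 0.83 with LPS. The other 8 stayed below the filter. In the LPS comparison 2 were called higher and 2 lower, against 16.2% and 60.1% of all tested genes. After rescaling these counts were 2 and 1, with 3908 higher and 3522 lower over all 12755 tested genes.

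**Figure D5:**
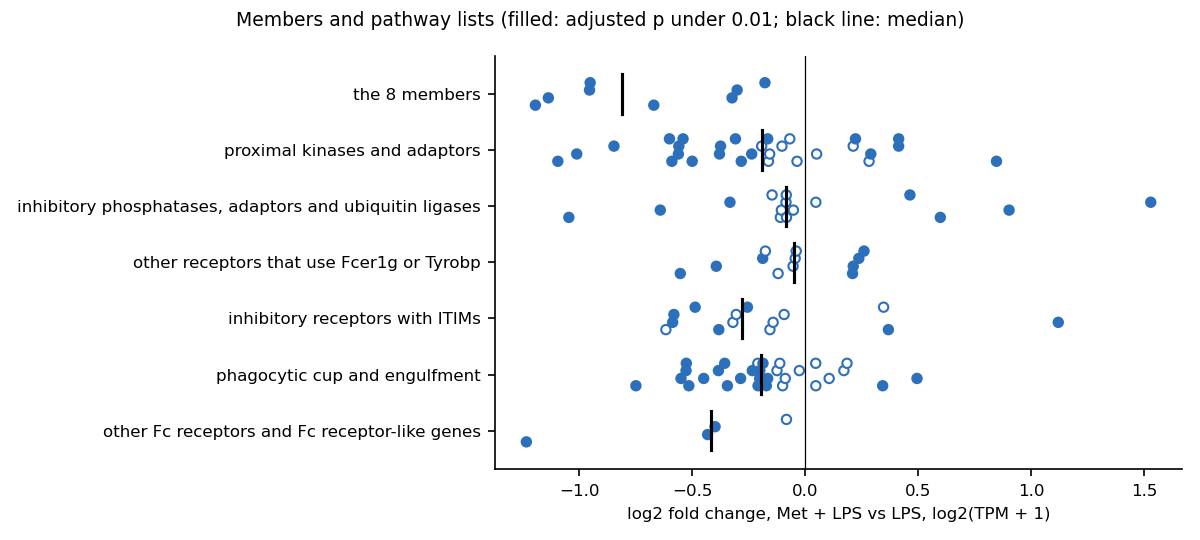
Log2 fold change in Met + LPS vs LPS (horizontal axis, log2(TPM + 1) scale) of each tested gene of the 8 described here and of 6 lists around them. Filled circles passed an adjusted p of 0.01, and black lines are medians. The median of the 8 is -0.81, and those of the lists lie between -0.42 and -0.05.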

How the data were processed

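RNA was measured in 6 BMDM libraries, 2 per group, after poly-A selection. According to the submitters' processing notes and the paper's methods, reads were aligned to GRCm38 with STAR 2.6.1d, handled with SAMtools 1.9 and counted per gene with featureCounts of Subread 1.6.3. The authors deposited the values as TPM, with replicates kept apart. TPM sums to the same total in every library and does not show the amount of RNA per cell. Read length, strand setting and the treatment of multiply mapped reads are not given in the sources used here. Groups came from the sample labels.

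Genes that reached 1 TPM in 2 or more libraries were tested with limma 3.58.1 (R 4.3.3) on log2(TPM + 1), in a fit of all 6 libraries without covariates, with a mean-variance trend, 3 residual degrees of freedom and Benjamini-Hochberg adjustment. The script was tested on simulated data. Ratios were compared by exact two-sided permutation tests in Python 3.11.15 with scipy 1.17.1. Reads were recovered from TPM and the GENCODE exon length, and 97.5% to 97.9% of the values under 200 reads came out whole within 0.02. Intervals cover the spread between libraries only. The members and lists were chosen with earlier results of these data known. Named beside the members were, per list, the 3 called, non-overlapping genes of largest change in LPS vs untreated and in Met + LPS vs LPS, the most abundant gene, and genes of like pattern. A marker list and a gene of like pattern are not reported here. Alternatives were median-ratio rescaling, a pseudocount of 0.1, a minimum of 5 TPM, no filter, voom on the recovered reads, only 2 groups in the fit, a replicate block, no trend, an adjusted p under 0.05 and leaving out each library. The ratios were also computed with recovered reads and, chosen after seeing the data, with listed transcript lengths.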

Additional observations from a re-analysis of the deposited data

How the results depend on the processing

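The count of the 8 genes called in Met + LPS against LPS dropped from 8 to 5 with no filter on low values, where Fcer1g (adjusted p = 0.0130), Tyrobp (0.0117) and Syk (0.0153) were lost with 23749 genes in the test, and the cause was not tested further. Signs turned for Fcgr1 with LPS after rescaling (0.52), with voom (0.0150), without untreated replicate 2 and without LPS replicate 1 (-0.11 to 0.10 over all libraries left out), for Fcgr3 (0.34) and Tyrobp (0.0928) with LPS and Fcer1g against untreated (0.36) after rescaling, and for Fcgr4 in Met + LPS against untreated without Met + LPS replicate 1 (-0.0099 to 0.14). On recovered reads, not divided by length, the Fcgr2b share moved by 15.4 points with LPS, 0.713 between Met + LPS and LPS and 16.1 against untreated, and the Fcer1g ratio by 0.147, 1.05 and 1.19. With listed transcript lengths the share moved by 7.48 with LPS and 7.77 against untreated, and the ratio moved by 0.318 with LPS. Over genes and settings, 110 of 120 results kept direction and call in Met + LPS against LPS and 10 lost the call without turning. In LPS against untreated, 104 kept both, 7 lost the call, 3 gained it and 6 turned. For Met + LPS against untreated these counts were 112, 5, 1 and 2. The settings include an adjusted p under 0.05, which cannot lose a call. Leaving out a library of the third group does not change a log2 fold change. The labels do not say whether a shared replicate number marks a shared batch. Deviations of same-numbered libraries correlated at -0.00365, 0.0284 and 0.00624, which cannot settle what the numbers mark. With the number as a block, 8 of the 8 were still called in Met + LPS against LPS, with Fcgr4 at -1.19. Over all genes, 4156 were called in that comparison against 2561 to 2792 with no filter, with 2 groups in the fit or without a library. Past the LPS cut-offs there were 776 genes, against 1512 with a pseudocount of 0.1 and 1596 with voom. The least covered of the 8 genes had 626 reads in a library, and the spread between 2 libraries sets the precision of each group.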

Other observations

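Outside the receptor pathway, the genes whose pattern over the 6 libraries was most like that of a member were looked for among 7297 protein-coding genes with a mean of at least 10 TPM, by the root mean square difference of centred log2(TPM + 1) values. The nearest to Fcgr2b was Ccl9, a chemokine, with 748 and 781 TPM untreated, 3160 and 3254 TPM with LPS and 1752 and 1768 TPM in Met + LPS (difference 0.05), followed by Pgs1. The nearest to Fcgr3 was Slc25a1, the mitochondrial citrate carrier, at 119 and 117, 105 and 104, and 54.0 and 54.8 TPM in the same order (0.04), followed by Lst1 and Plxdc2. The nearest to Fcgr1 was Pou2f2, the transcription factor OCT2, at 18.6 and 19.1, 18.1 and 19.4, and 8.41 and 8.64 TPM (0.05), followed by Cnp and Pycard. Arhgap23, Tha1 and Syne3 were nearest to Fcgr4 (0.07 to 0.08). Scarb1, a receptor for high-density lipoprotein, was nearest to Fcgrt, at 67.7 and 68.5, 43.4 and 42.5, and 27.0 and 26.1 TPM (0.03), followed by Magee1 and Pcp4l1. Fcer1g, Tyrobp and Syk spanned less than 1 on the log2 scale between group means and were not matched.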
